A study of Sus scrofa with 9 samples.

Results

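The 9 genes described here encode chaperones, folding factors and transcription factors of the endoplasmic reticulum (ER) and of its unfolded protein response: HSPA5, HSP90B1, DNAJB11, PDIA4, SDF2L1, CRELD2, MANF, XBP1 and DDIT3. They were chosen by symbol, with earlier results of these data known. All 9 had a probe set with a single symbol, out of 6765 genes that had one on the array. The genes have 12 probe sets, of which 11 passed a filter on dim signals, so that all 9 genes were tested. Expression was measured in biopsies of the mammary gland of 6 Large White sows, each sampled about 17 days before farrowing (day -17, late pregnancy), on day 1 after it and about day 17 of lactation. Total RNA of 2 sows at a time was pooled in equal volumes, which gave 3 pools for each of the 3 days and 9 Affymetrix porcine arrays. No animal was treated or genetically altered, and a pool hides the spread between its sows.

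Proteins that leave the cell, which include the caseins and whey proteins of milk, are folded in the ER. HSPA5 (BiP) binds unfolded chains there, and when such chains accumulate, the sensors IRE1, PERK and ATF6 set off the unfolded protein response. IRE1 splices the XBP1 mRNA into the form that encodes an active transcription factor, ATF6 and XBP1 raise the transcription of chaperone genes, and PERK acts through ATF4 on genes that include DDIT3 (CHOP). An array signal does not separate spliced from unspliced XBP1 mRNA.

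Unless another measure is named, a value is the deposited linear MAS5 signal of a gene's probe set with the highest mean, and a difference is on the log2 scale, ± its standard error in limma, with n = 3 pools a day. A gene is said to have risen or fallen where the Benjamini-Hochberg adjusted p over all 15519 tested probe sets was under 0.05. Every array had been scaled to the same trimmed mean. The 21 control probe sets for E. coli transcripts were brighter on later days, so that scaling the arrays to them instead (E. coli scaling) lowers all log2 differences, by 0.43 from late pregnancy to day 1, by a further 0.87 to day 17 and by 1.30 in all. Of 8 luminal epithelial markers, 7 had a probe set, and none of these lay below the filter level on all arrays of a day. In whole tissue, fewer cells of a type and less RNA per cell cannot be told apart. With 3 pools a day, the smallest p of an exact permutation test is 0.1, so that all calls come from the fit across probe sets. Such p-values measure the spread between pools, and the number of arrays limits their precision. The fit has no term for the repeated sampling of the same sows, so its p-values leave that out.

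From late pregnancy to day 1, 8 of the 9 genes rose and DDIT3 fell. Of all tested probe sets, 12% rose and 12.1% fell (1860 and 1876, or 2282 and 1251 with median centring and 814 and 6271 with E. coli scaling). The median log2 difference of the 9 was 1.50, against -0.07 over all tested probe sets. Since the genes were chosen with earlier results of these data known, this contrast is a description and no test. The rises ran from 1.65-fold for XBP1 to 6.70-fold for SDF2L1. From day 1 to day 17, MANF, PDIA4 and HSPA5 fell and the other 6 did not pass. This count depended on the setting: all 9 were lower with E. coli scaling, and 1 to 4 were called with 1 array left out. The background for this comparison was 7.02% higher and 6.61% lower (1090 and 1026 probe sets, or 112 and 11002 with E. coli scaling). Against day -17, 6 of the 9 were higher on day 17 and 3 did not pass, beside 21.7% of probe sets higher and 24.8% lower, but with E. coli scaling CRELD2 alone was called higher and 5 were called lower (all probe sets, 471 higher and 12685 lower). The 3 comparisons share their days, so they are not independent of each other.

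**Figure D1:**
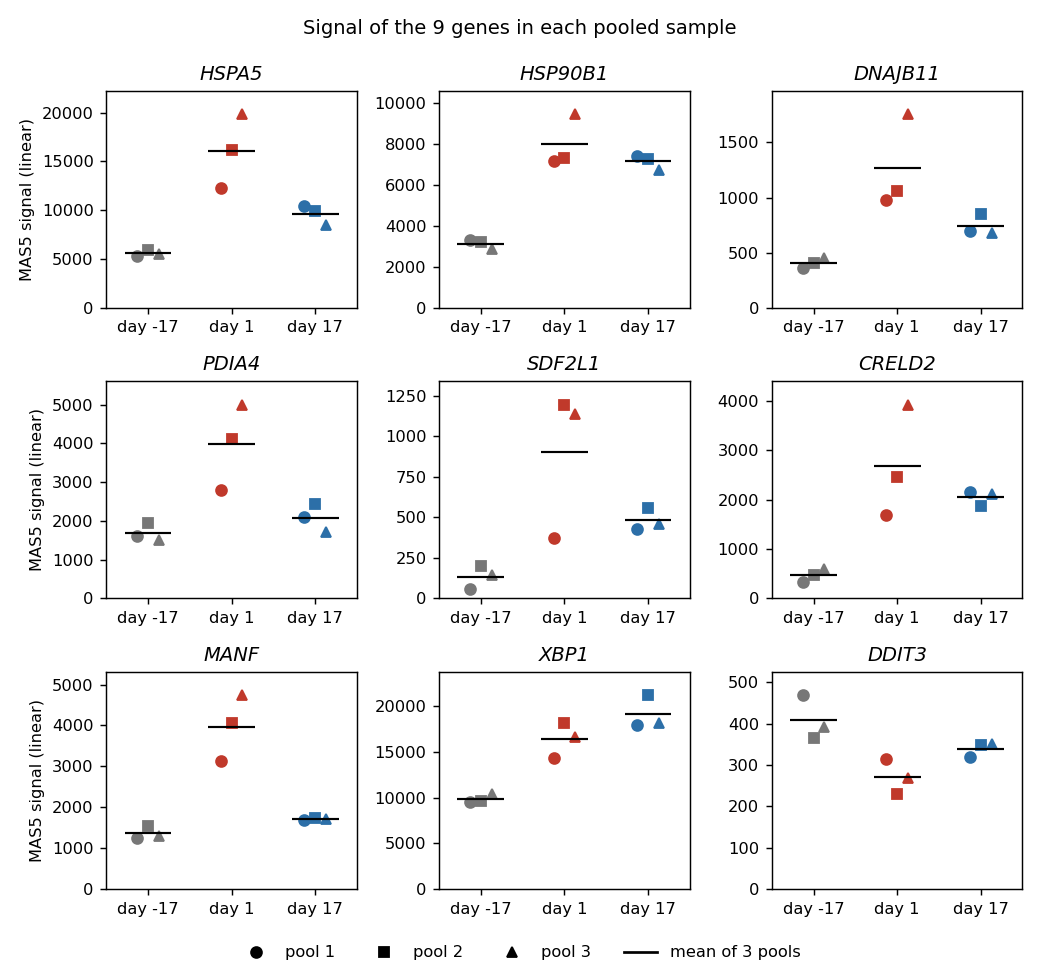
Linear MAS5 signal (vertical axis, from 0) of the 9 genes in each pooled sample on days -17, 1 and 17; symbols mark the pool number and bars the mean of 3 pools. For 8 genes the day 1 mean lies above the day -17 mean, and for DDIT3 it lies below.

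HSPA5, the Hsp70 chaperone of the ER, had signals of 5343, 5939 and 5525 in pools 1 to 3 on day -17, of 12245, 16181 and 19857 on day 1, and of 10455, 9899 and 8476 on day 17. The 3 days did not overlap, and day 17 lay between the other days. HSPA5 rose 2.82-fold to day 1 (1.50 ± 0.17, adjusted p = 0.000314) and fell 1.65-fold from there to day 17 (log2 difference -0.72 ± 0.17, adjusted p = 0.0193). That fall did not pass when pool 2 or pool 3 of day 1 was left out (adjusted p = 0.0527 and 0.0519), nor without pool 2 or pool 3 of day 17 (0.0537 and 0.0751), and over 21 alternatives its adjusted p ran from 4.59e-05 to 0.674. On day 17 HSPA5 was 1.71-fold above day -17 (0.77 ± 0.17, adjusted p = 0.0038), a direction that turned with E. coli scaling (-0.53).

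HSP90B1 (GRP94), the Hsp90 chaperone of the ER, had signals of 3322, 3227 and 2852 on day -17, of 7161, 7280 and 9446 on day 1, and of 7416, 7254 and 6742 on day 17. Both lactation days lay above day -17 and overlapped each other. It rose 2.53-fold to day 1 (1.34 ± 0.13, adjusted p = 0.000146) and stood 2.28-fold above day -17 on day 17 (1.19 ± 0.13, adjusted p = 8.83e-05; -0.11 with E. coli scaling). Between day 1 and day 17 its log2 difference was -0.15 (95% interval -0.44 to 0.14). Its other probe set gave 1.14 ± 0.17, -0.15 ± 0.17 and 0.99 ± 0.17 for the rise to day 1, the step to day 17 and the whole span.

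DNAJB11 (ERdj3), a J-domain partner that delivers unfolded chains to HSPA5, had signals of 358, 402 and 456 on day -17, of 974, 1062 and 1757 on day 1, and of 696, 850 and 677 on day 17. The days did not overlap, and day 1 pool 3 stood well above the other day 1 pools. It rose 3.03-fold to day 1 (1.60 ± 0.22, adjusted p = 0.00103) and was 1.83-fold above day -17 on day 17 (0.87 ± 0.22, adjusted p = 0.00925; -0.43 with E. coli scaling). The difference from day 1 to day 17 was -0.73 ± 0.22, almost that of HSPA5, and did not pass (adjusted p = 0.0543). It passed in 6 of 21 alternatives, among them when pool 1 of day 1 was left out (adjusted p = 0.0324), with adjusted p from 0.000148 to 0.753.

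PDIA4 (ERp72) forms and rearranges disulfide bonds. Its signals were 1598, 1942 and 1500 on day -17, 2801, 4123 and 5002 on day 1, and 2108, 2428 and 1718 on day 17. Day 1 lay above both other days, which overlapped each other. PDIA4 rose 2.32-fold to day 1 (1.21 ± 0.21, adjusted p = 0.00356) and fell 1.87-fold to day 17 (log2 difference -0.91 ± 0.21, adjusted p = 0.0223). That fall did not pass when pool 2 or pool 3 of day 1 was left out (adjusted p = 0.0622 and 0.0685), nor without pool 1 or pool 3 of day 17 (0.0624 and 0.0831), in a range over 21 alternatives from 9.79e-05 to 0.517.

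The 3 probe sets of PDIA4 did not give the same picture. On day 17 the brightest one stood at 0.31 ± 0.21 relative to day -17 (adjusted p = 0.262), with a change of sign under E. coli scaling (-0.997). A dimmer one, with mean signals of 89.3, 301 and 207 on the 3 days, rose by 1.75 ± 0.21 to day 1 and was higher by 1.19 ± 0.21 on day 17 than on day -17 (adjusted p = 0.00148). Its step from day 1 to day 17 was -0.55 ± 0.21 and did not pass (adjusted p = 0.109), and 1 of its 3 day -17 signals, from 87.5 to 92.3, lay below the filter level. The third lay below the filter level on all arrays, with mean signals of 31.8, 50.8 and 45.4, and was not tested. The mean over the tested probe sets was higher on day 17 than on day -17 (0.75, adjusted p = 0.00788). Whether PDIA4 returned to its late pregnancy level therefore differs between its probe sets.

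SDF2L1, a partner of the HSPA5 and DNAJB11 machinery, had signals of 57.9, 199 and 146 on day -17, of 375, 1195 and 1135 on day 1, and of 426, 559 and 456 on day 17. Its pools differed widely on the first of these days (coefficient of variation 53.1%) and on day 1 (50.7%), less so on day 17 (14.5%). Both lactation days lay above day -17, where pool 1 was below the filter level. The rise to day 1 was 6.70-fold (2.74 ± 0.50, adjusted p = 0.00408; 95% interval of the fold 3.11 to 14.5), and day 17 stood 4.01-fold above day -17 (2.00 ± 0.50, adjusted p = 0.00846; 0.70 with E. coli scaling, adjusted p = 0.198, the highest of 21 alternatives, whose lowest was 0.000597). The difference from day 1 to day 17 was -0.74 (95% interval -1.85 to 0.37), too wide to show a change of the size seen in HSPA5.

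CRELD2, a secreted and ER-resident protein with EGF-like domains that is induced by ER stress, had signals of 327, 478 and 587 on day -17, of 1680, 2453 and 3921 on day 1, and of 2152, 1869 and 2121 on day 17. All 6 lactation values lay above those of day -17, and the day 1 pools enclosed those of day 17. It rose 5.61-fold to day 1 (2.49 ± 0.29, adjusted p = 0.000425) and was 4.53-fold above day -17 on day 17 (2.18 ± 0.29, adjusted p = 0.000285). CRELD2 was the only gene of the 9 that was called higher on day 17 than on day -17 under all 21 alternatives (0.88 with E. coli scaling). From day 1 to day 17 the log2 difference was -0.31 (95% interval -0.96 to 0.34).

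MANF, a small ER-resident factor that is also secreted and has neurotrophic activity, had signals of 1250, 1548 and 1295 on day -17, of 3126, 4052 and 4741 on day 1, and of 1686, 1744 and 1700 on day 17. The 3 days did not overlap, and the day 17 pools differed from each other by little, with an SD of 30.1 around a mean of 1710. MANF rose 2.88-fold to day 1 (1.53 ± 0.16, adjusted p = 0.000237) and fell 2.29-fold to day 17 (log2 difference -1.20 ± 0.16, adjusted p = 0.00247), where it stood at 43.7% of its day 1 level. This fall had the largest size of the 9 and was called in 20 of 21 alternatives. What remained above day -17 was 0.33 ± 0.16 and did not pass (adjusted p = 0.111). It passed when pool 1 of day 1 was left out (adjusted p = 0.0491). E. coli scaling called it in the opposite direction (-0.97, adjusted p = 0.000133), and the highest adjusted p of 21 alternatives was 0.915.

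XBP1, the transcription factor that drives chaperone and secretory genes, was the one gene of the 9 with its highest mean on day 17. Its signals were 9496, 9670 and 10423 on day -17, 14345, 18120 and 16648 on day 1, and 17991, 21205 and 18150 on day 17. Both lactation days lay above day -17 and overlapped each other. XBP1 rose 1.65-fold to day 1 (0.73 ± 0.12, adjusted p = 0.00228) and was 1.93-fold above day -17 on day 17 (0.95 ± 0.12, adjusted p = 0.000173). With E. coli scaling the first of these did not pass (0.30, adjusted p = 0.0615) and the second turned (-0.35, adjusted p = 0.0167), in ranges of adjusted p over 21 alternatives from 0.000715 to 0.603 and from 5.15e-05 to 0.26. From day 1 to day 17 it differed by 0.23 (95% interval -0.03 to 0.49; -0.65 with E. coli scaling).

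Plasma cells also carry much XBP1 and ER chaperone mRNA. Of 9 plasma cell markers 4 had a probe set, and CD38 lay below the filter level on all arrays. Their summed signal was 6683 to 10494 on day -17, 6410 to 11321 on day 1 and 31649 to 32938 on day 17, with JCHAIN and TNFRSF17 higher on day 17 than on day 1 (1.76 ± 0.22 and 3.60 ± 0.40) and SDC1 not passing. The summed ranges of day -17 and day 1 overlapped. The part of these cells in the signal of XBP1 or of the other genes was not tested for any day.

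DDIT3 (CHOP), a stress-induced transcription factor of the PERK branch that is linked to cell death, ran opposite to the chaperones. Its signals were 469, 366 and 391 on day -17, 315, 231 and 268 on day 1, and 318, 348 and 350 on day 17. All day 1 values lay below the other days. DDIT3 fell 1.51-fold to day 1 (log2 difference -0.59 ± 0.17, adjusted p = 0.0326) and kept that sign in all 21 alternatives. The call held in 12 of them (adjusted p from 0.00238 to 0.51) and was lost when pool 1 or pool 3 of day -17 was left out (0.104 and 0.0736) or pool 2 or pool 3 of day 1 (0.104 and 0.0837), and with quantile normalization (0.086), median centring (0.0793), no filter (0.0533), the 6 arrays alone (0.0658) or scaling to luminal markers (0.51). Day 17 differed by 0.33 (95% interval -0.05 to 0.72) from day 1, or -0.54 with E. coli scaling, and by -0.26 (-0.65 to 0.12) from day -17.

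**Figure D2:**
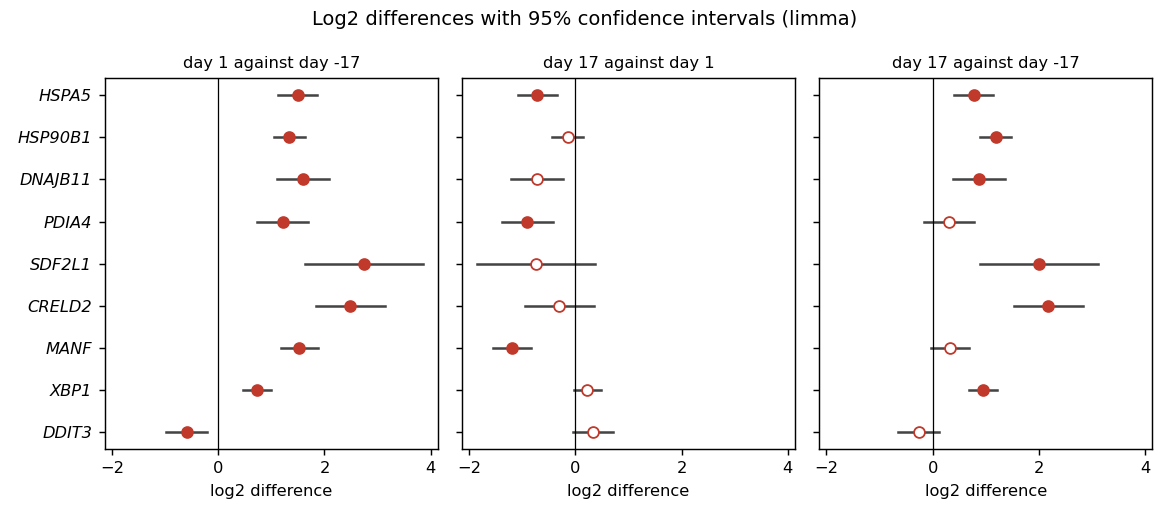
Log2 differences (horizontal axis) of the 9 genes in 3 comparisons, with 95% confidence intervals from limma; filled circles have an adjusted p under 0.05. All 9 are filled for day 1 against day -17, 3 for day 17 against day 1 and 6 for day 17 against day -17.

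A ratio of 2 genes within an array does not change when each array is multiplied by a constant, as in all scalings tried here except quantile normalization. The log2 ratio of each gene to HSPA5 was therefore followed across days, with 24 such differences in all, given as descriptions. The ratio of DNAJB11 differed by at most 0.10 between any 2 days, with overlapping pools. MANF kept it from day -17 to day 1 (difference 0.03, pools overlapping) and lost 0.47 of it by day 17 (pools not overlapping). HSP90B1 did the reverse: its ratio differed by -0.16 on day 1 with overlap, and was 0.57 higher on day 17 than on day 1 without overlap.

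XBP1 lost 0.77 relative to HSPA5 by day 1 and gained 0.95 from day 1 to day 17, both without overlap, and ended 0.18 from where it began with overlapping pools. CRELD2 gained 0.99 by day 1 and stood 1.41 above its day -17 ratio on day 17, neither with overlap. SDF2L1 gained 1.25 by day 1 with overlap, since its ratio in day -17 pool 2 (-4.90) lay above that in day 1 pool 1 (-5.03). Day -17 pool 1 was low (-6.53), with an SD of the ratio of 0.86 on that day. On day 17 the ratio of SDF2L1 was 1.23 higher than on day -17, without overlap. PDIA4, by its brightest probe set, lost 0.28 by day 1 and was 0.47 below its day -17 ratio on day 17, both without overlap. Its dimmer tested probe set went the other way. That probe set gained more than HSPA5 to day 1 (1.75 against 1.50) and from day -17 to day 17 (1.19 against 0.77). DDIT3 lost 2.09 by day 1 and regained 1.05 of it by day 17, without overlap in either step. By the brightest probe set of each, the 9 genes thus changed unequally, whatever constant each array is scaled by.

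**Figure D3:**
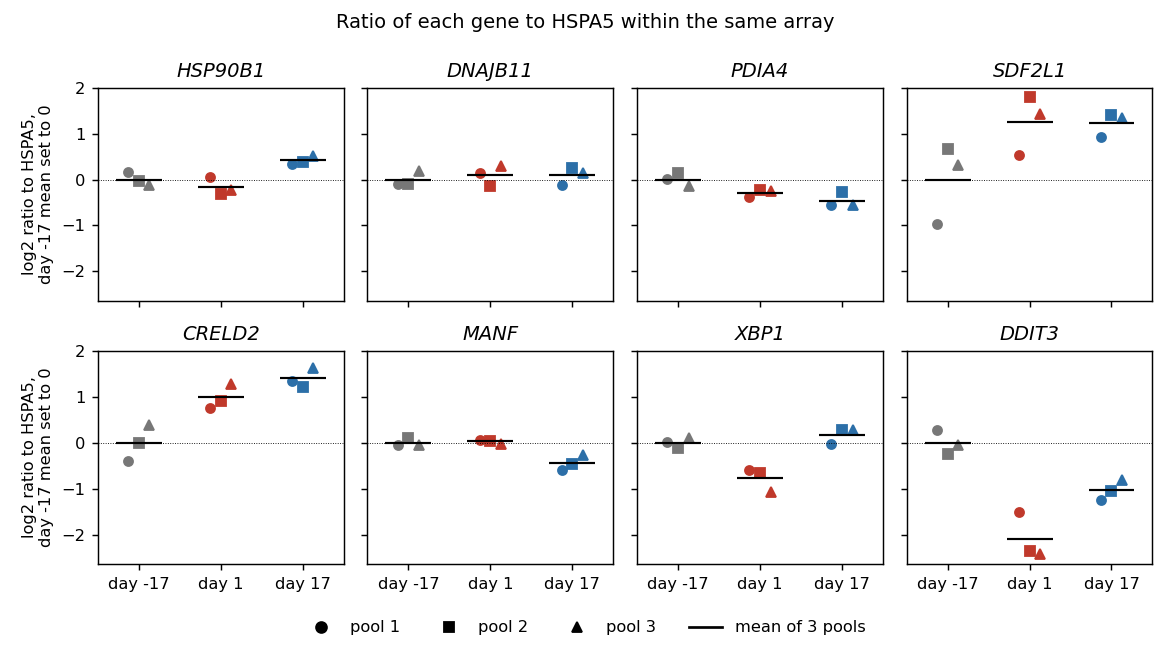
Log2 ratio of 8 genes to HSPA5 within the same array (vertical axis, mean of day -17 set to 0) on days -17, 1 and 17; symbols mark pools and bars the mean of 3. DNAJB11 stays near 0, XBP1 dips by 0.77 on day 1 only, MANF drops by 0.47 from day 1 to day 17, and DDIT3 dips by 2.09.

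Pools of a day differed most on day 1. There pool 1 had the lowest signal of the day for 8 of the 9 genes and the highest for DDIT3, with a mean deviation of -0.36 log2 from the day's mean, against 0.04 for pool 2 and 0.33 for pool 3. On day 17 the mean deviations were -0.02, 0.09 and -0.08. In the same day 1 pool 1 the summed signal of the luminal epithelial markers was the lowest of its day (25478, against 36466 and 41213) and that of 5 fibroblast markers the highest (41688, against 16311 and 22356). On day -17 pool 1 was the lowest for 6 of the 9 genes, and its luminal sum was 16219, against 34052 and 30677. The part of cell composition in these differences was not tested.

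Across days the luminal sum ranged from 16219 to 34052 on day -17, from 25478 to 41213 on day 1 and from 42140 to 46198 on day 17, and the fibroblast sum from 36683 to 50117, from 16311 to 41688 and from 16095 to 18005. The luminal markers did not move as one, and their sum was carried mostly by EPCAM, with mean signals of 8882, 17738 and 27535. Of the 7, EPCAM, CLDN3 and CLDN4 rose to day 1 and 4 did not pass. On day 17 the same 3 were higher than on day -17, while KRT8 (-1.48 ± 0.48) and KRT19 (-1.18 ± 0.43) were lower. Of the 5 fibroblast markers, 2 fell to day 1 and 4 were lower on day 17 than on day -17. When the arrays were instead scaled to the 7 luminal markers, an alternative added after seeing the data, the 9 genes kept the sign of all their log2 differences, lowered by 0.18 for day 1 against day -17. The calls for that comparison then shrank to 2, SDF2L1 (2.57) and CRELD2 (2.31), while the standard error of HSPA5 grew from 0.17 to 0.42. Over all probe sets that setting called 408, against 3736 without it. The 6 adipocyte markers had summed signals of 8941 to 23606, 18293 to 24445 and 28548 to 28865 on the 3 days, a sum carried by FABP4 and LPL. ADIPOQ (-4.36 ± 1.23), GPD1 (-3.65 ± 0.61) and RBP4 (-6.33 ± 0.88) were lower on day 17 than on day -17, below the filter level on all day 17 arrays. In the same comparison 2 of the 6 were called higher and 1 did not pass. The median of the list was -2.45 and its highest difference 1.76. Leukocyte markers of 459 to 704, 396 to 566 and 565 to 745 (2 of 5 below it on all days) and endothelial markers summed signals of 5304 to 8420, 5608 to 8070 and 5308 to 6561.

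Most other genes of the ER folding machinery rose to day 1 as well. Of 29 tested genes for other ER chaperones, disulfide enzymes and prolyl isomerases, 20 rose, 1 fell and 8 did not pass (median 0.82; 14 and 3 with E. coli scaling, median 0.39). DNAJB9, another J-domain partner of HSPA5, rose by 2.18 ± 0.18 and SELENOM, an ER selenoprotein, by 1.82 ± 0.21, while TMX4, a membrane-bound relative of the disulfide isomerases, fell (-1.32 ± 0.17). From day 1 to day 17, 4 of the 29 were called, beside 7.02% of all tested probe sets higher and 6.61% lower. With E. coli scaling 26 of the 29 were lower (median -0.93), beside 112 higher and 11002 lower over all tested probe sets. SERPINH1, the collagen chaperone (-1.28 ± 0.20), PDIA3, the glycoprotein disulfide isomerase (-0.84 ± 0.18, lost without pool 3 of day 17 at adjusted p = 0.0605), and PDIA6 (-0.62 ± 0.15, named as the remaining one after its value was seen) fell. QSOX1, a sulfhydryl oxidase, rose (0.83 ± 0.20; -0.04 with E. coli scaling; lost without pool 2 or 3 of day 1 or pool 1 or 3 of day 17, at adjusted p from 0.0535 to 0.0743). Against day -17, 18 were higher and 2 lower on day 17 (median 0.81), which E. coli scaling turned to 3 and 18 (median -0.49). Over all 15519 tested probe sets that scaling called 471 higher and 12685 lower, which is the background for the lists below as well. Without it the background for all lists was 12% higher and 12.1% lower for day 1 against day -17. It was 7.02% and 6.61% for day 17 against day 1, and 21.7% and 24.8% for day 17 against day -17. SELENOM (2.31 ± 0.21) and DNAJB9 (2.12 ± 0.18) led the 18 that were higher on day 17 than on day -17, with TMX4 (-1.38 ± 0.17) and SERPINH1 (-0.95 ± 0.20) the 2 that were lower.

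Genes of ER-associated degradation, which returns misfolded chains to the cytosol, mostly rose to day 1. Of 13 tested, 8 rose and 5 did not pass (median 0.70; 6 higher and 1 lower with E. coli scaling), and 9 were higher on day 17 than on day -17 (median 0.65, but 1 higher and 8 lower with E. coli scaling). INSIG1, a sterol-regulated partner of the degradation ligases, led both (2.96 ± 0.22 and 3.85 ± 0.22). It was followed by HM13, the signal peptide peptidase, on day 1 (1.78 ± 0.25) and by DERL1, a channel component, on day 17 (1.39 ± 0.17, 0.09 with E. coli scaling). Between the lactation days INSIG1 rose (0.89 ± 0.22; 0.02 with E. coli scaling) and VCP, the ATPase that extracts the chains, fell (-0.57 ± 0.17), while 11 did not pass (11 of the 13 lower with E. coli scaling). Both of these calls were fragile: that of INSIG1 was lost without pool 2 or 3 of day 1 or pool 1 or 3 of day 17 (adjusted p from 0.0644 to 0.0908), that of VCP without any array except pool 1 of day 1 (0.0552 to 0.143). Over 21 alternatives they were called in 13 and 7.

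DDIT3 is usually counted in the ATF4 branch. Of 12 other tested targets and components, 5 rose to day 1 and 7 did not pass (median 0.54; 3 higher and 2 lower with E. coli scaling). ASNS, asparagine synthetase, rose by 1.33 ± 0.29 and MTHFD2, a mitochondrial folate enzyme, by 1.28 ± 0.18. ATF4 itself, named after its value was seen, rose by 0.73 ± 0.11, the same as XBP1. From day 1 to day 17 CTH, which makes cysteine, rose (1.34 ± 0.24). Its call was lost with E. coli scaling (0.46, adjusted p = 0.0909) and with scaling to luminal markers (adjusted p = 0.294). MTHFD2 fell (-0.65 ± 0.18, lost without pool 2 or 3 of day 1 or any day 17 pool, at adjusted p from 0.0653 to 0.116). The other 10 did not pass, and 10 of the 12 were lower with E. coli scaling. Against day -17, 6 were higher and 1 lower on day 17 (median 0.67), whereas E. coli scaling put 9 lower (median -0.63). Of all 15519 tested probe sets that scaling put 12685 lower.

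In that comparison CTH (1.07 ± 0.24, -0.23 with E. coli scaling) and PPP1R15B, a subunit of the phosphatase that reverses the PERK signal (1.02 ± 0.38, -0.28 with E. coli scaling), rose most, and PSAT1, a serine synthesis enzyme, fell (-1.25 ± 0.34). The call of PPP1R15B was lost without any day -17 pool, pool 2 or 3 of day 1 or pool 1 or 2 of day 17 (adjusted p from 0.059 to 0.173; called in 8 of 21 alternatives), and that of PSAT1 without pool 3 of day -17 (0.0509). Of the sensors themselves little can be said, since 9 of 13 symbols had no probe set under a single symbol here, ERN1, EIF2AK3 and ATF6 among them. Of the 3 tested genes of that list none passed from day -17 to day 1 in limma, and none had an unadjusted p under 0.05 (the lowest was 0.0519, for ATF6B at -0.41). With E. coli scaling 2 of the 3 were lower on day 1 (median -0.43), and all 3 were lower on day 17 than on either earlier day. TMBIM6, an inhibitor of cell death in the ER membrane, was higher on day 17 than on day 1 (0.53 ± 0.10) and day -17 (0.66 ± 0.10), with -0.34 and -0.64 under E. coli scaling. The call against day 1 was lost with the mean over its probe sets (0.30, adjusted p = 0.128 in limma). Scaling to luminal markers lost both calls (adjusted p = 0.969 and 0.561). CREB3L2, an ER-anchored transcription factor, was lower on day 17 than on day -17 (-0.50 ± 0.18), a call made in 10 of 21 alternatives. It was lost with quantile normalization (adjusted p = 0.144), median centring (0.104), no filter (0.0525), no intensity trend (0.0506) and scaling to luminal markers (0.294), and without pool 1 or 3 of day -17, pool 3 of day 1 or any day 17 pool (0.0521 to 0.121).

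Chaperones of the cytosol and mitochondria served as a comparison. Of 17 tested, 4 rose to day 1 and 13 did not pass (median 0.26; 1 higher and 6 lower with E. coli scaling, median -0.17). DNAJA1 (0.86 ± 0.13) and HSPH1 (0.78 ± 0.20, lost without pool 2 or 3 of day -17 or pool 3 of day 1 at adjusted p from 0.0601 to 0.0759) led them, both below the 1.50 of HSPA5. From day 1 to day 17, 5 fell and 12 did not pass (median -0.36; all 17 lower with E. coli scaling, median -1.23), led by HSPA4 (-0.82 ± 0.14) and HSPH1 (-0.81 ± 0.20, lost without pool 2 or 3 of day 1 or pool 2 of day 17 at adjusted p from 0.0507 to 0.0797). With E. coli scaling all 17 were lower on day 17 than on day -17 (median -1.52). Without it, 1 was higher and 6 lower (median -0.22), beside 21.7% of all tested probe sets higher and 24.8% lower. DNAJA2 was the higher one (0.41 ± 0.14; -0.89 with E. coli scaling), and HSP90AB1, the cytosolic Hsp90 and a relative of HSP90B1, was lower (-0.91 ± 0.21), as was STIP1, its co-chaperone (-0.71 ± 0.22). The calls of DNAJA2 and STIP1 were lost without pool 2 or 3 of day -17 or pool 1 or 3 of day 17 (adjusted p from 0.0653 to 0.116 and from 0.0684 to 0.0882). The difference between this list and the ER genes was not tested.

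**Figure D4:**
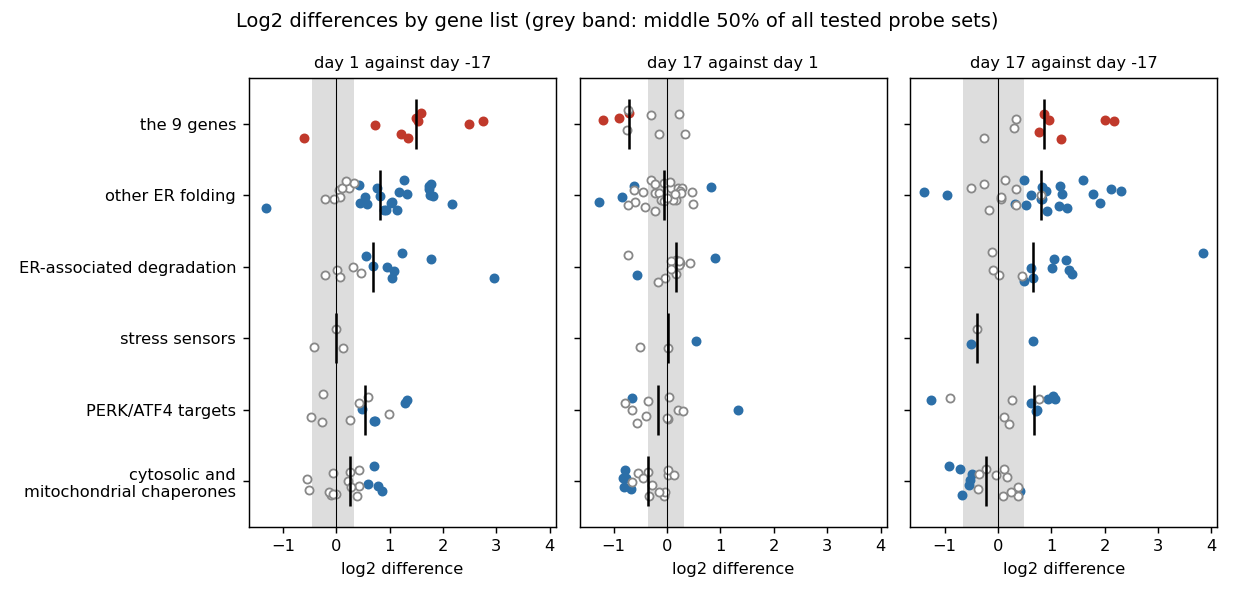
Log2 differences (horizontal axis) in 3 comparisons for the 9 genes and 5 lists of related genes; filled points have an adjusted p under 0.05, black bars are medians and the grey band holds the middle 50% of all tested probe sets. For day 1 against day -17 the medians are 1.50 for the 9 genes, 0.82 for other ER folding genes and 0.26 for cytosolic and mitochondrial chaperones.

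Likeness to HSPA5 was measured as the root mean square difference of log2 signals over the 9 arrays, each centred on its gene's mean. Of 5509 other named genes the nearest were ATP5G1, a subunit of the mitochondrial ATP synthase (0.12), UBFD1 (0.14), PGM3, an enzyme of the pathway to UDP-GlcNAc (0.16), DAD1, a subunit of the ER oligosaccharyltransferase (0.16), and MTHFD2 (0.17). Among the 9, DNAJB11 was nearest (0.16), followed by PDIA4 (0.22), MANF (0.23) and HSP90B1 (0.27), and DDIT3 was farthest (0.90). The genes nearest to DDIT3 were SNAPIN (0.12), FBXO3 (0.12), ALDH1B1 (0.13), RPIA (0.13) and FBXO22 (0.13). These are descriptions over 9 arrays that share their days, with no test.

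**Figure D5:**
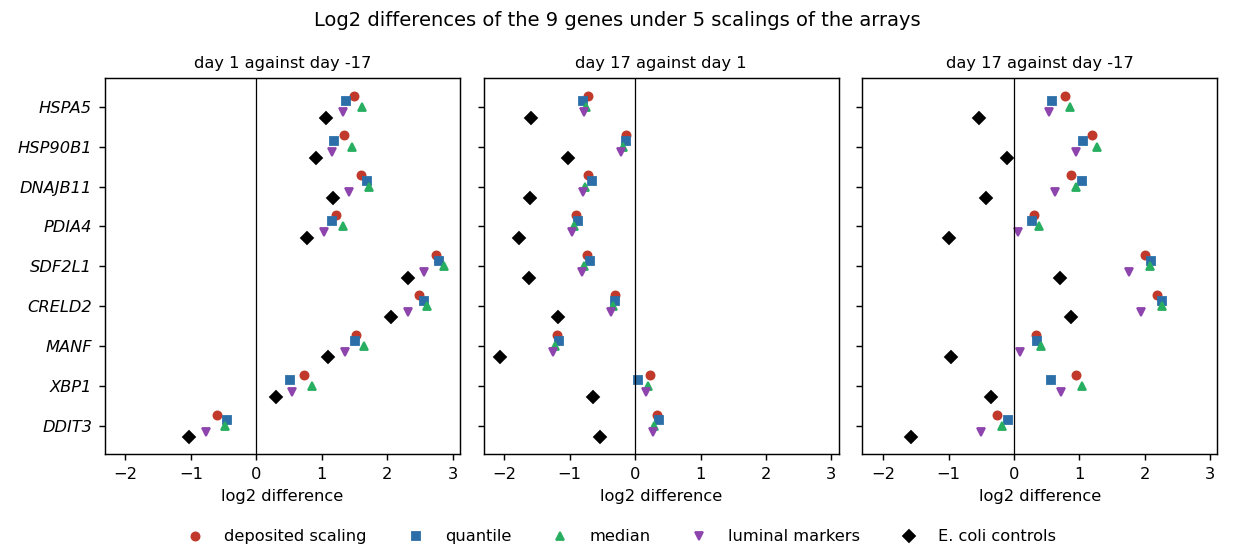
Log2 differences (horizontal axis) of the 9 genes in 3 comparisons under 5 ways of scaling the arrays to each other. For day 1 against day -17 every gene keeps its sign under all 5, while E. coli scaling moves day 17 against day -17 below 0 for HSPA5 (-0.53), HSP90B1 (-0.11), DNAJB11 (-0.43), PDIA4 (-0.997), MANF (-0.97) and XBP1 (-0.35).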

How the data were processed

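The values analysed are the intensities the authors deposited, linear and 1 to a probe set on each array; per the submitters' processing notes the tool was MAS5 (its version is not given in the sources used here). Of 24123 probe sets, 124 controls were left out. A probe set was tested where its signal reached the 40th percentile of the array on at least 3 of 9 arrays (15519 did). Gene symbols came from the platform annotation, where 10099 probe sets had 1 symbol, 198 several and 13826 none.

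No pseudocount was added before taking log2, and all 9 arrays were fitted with limma 3.58.1 in R 4.3.3 (eBayes with an intensity trend, day as the only term, two-sided tests, Benjamini-Hochberg adjustment). A gene was represented by its brightest tested probe set (mean over arrays on the log2 scale). From each list and comparison the text names the 2 called genes with the largest rise and the 2 with the largest fall. The code was tested on simulated data: for day 1 against day -17, 36 of 100 simulated 2-fold and 83 of 100 4-fold changes were recovered among 15519 probe sets, with 7.75% of calls false. There the pools were drawn independently and no other probe set was changed, whereas 3736 were called in the data. The simulated rates therefore check the code and do not give the recovery or the false share in the data.

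Pool numbers recur on each day, and the labels do not say that they mark the same sows. Deviations of same-numbered pools had correlations of 0.235 to 0.506 for day 1 against day -17, against -0.387 to 0.113 for pools of other numbers. For day 17 against day -17 these were 0.105 to 0.130, against -0.0739 to -0.0421. For day 17 against day 1 they were 0.0960 to 0.107, against -0.0768 to -0.0268. Since deviations were taken from each day's mean, positive values for same-numbered pools lower those of the others by construction. The ranges set against each other are therefore not independent. Alternatives were other scalings, filters, variance models, the pool number as a block, and each array left out. The genes and lists were chosen with earlier results of these data known. Sequences of the genes were not used here.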

Additional observations from a re-analysis of the deposited data

How the results depend on the processing

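Of the 3 counts of called members, those for day 1 against day -17 and day 17 against day -17 stayed within 1.5 times their value of 9 and 6 under other scalings, filters, variance models and left-out arrays, except as follows. Scaling to the luminal markers gave 2, 0 and 2 called members for the rise to day 1, the step from day 1 to day 17 and the whole span (9, 3 and 6 before), with 7, 2 and 3 at an unadjusted p under 0.05 in limma, and 408, 150 and 2443 probe sets. A minimum of 2-fold gave 1 and 3 members for day 17 against day 1 and against day -17, and 1592, 820 and 3809 probe sets.

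E. coli scaling gave 9 called members for day 17 against day 1, all lower. For the whole span it gave 6, of which 1 was higher and 5 lower. It called 7085, 11114 and 13156 probe sets in the same order. It turned XBP1 (-0.65) and DDIT3 (-0.54), QSOX1 (-0.042) and TMBIM6 (-0.34) for day 17 against day 1. For day 17 against day -17 it turned MANF (-0.97), PDIA4 (-0.997), HSPA5 (-0.53), HSP90B1 (-0.11), DNAJB11 (-0.43), XBP1 (-0.35), DNAJA2 (-0.89), CTH (-0.23), PPP1R15B (-0.28) and TMBIM6 (-0.64). The cause of the brighter controls was not tested.

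With 1 array left out, called members ran from 1 to 4 for day 17 against day 1 (1 when pool 2 or 3 of day 1 or pool 3 of day 17 was left out), and called probe sets from 2110 to 4424 for day 1 against day -17 and from 1049 to 2109 for day 17 against day 1. With the pool number as a replicate block, called members were 9, 4 and 6 and called probe sets 4496, 2743 and 7825. The block changed no call of a member but that of DNAJB11 for day 17 against day 1 (adjusted p = 0.0357).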
